A study of Mus musculus with 2 samples.

Results

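The miR-23/27/24 microRNAs come from 2 paralogous gene clusters of the mouse, and 6 of the 1973 miRNA genes in the tables stood for them here. The members were taken by gene symbol: Mir23b, Mir27b and Mir3074-1 on chromosome 13, and Mir23a, Mir27a and Mir24-2 on chromosome 8. For Mir3074-1 the reads on the opposite strand were taken as well, because Mir24-1 lies there. All values come from small RNA of hindbrain pooled from healthy B6NCrl embryos of both sexes at embryonic day 12.5, with no treatment and no second condition. There were 2 libraries in 1 group, replicate 1 from a pool of 120 embryos with 2764276 counts assigned to miRNA genes, and replicate 2 from 88 embryos with 3946444. Both carry the same donor label, so that they are separate pools rests on their replicate numbers and pool sizes.

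A miRNA is cut from a hairpin precursor and pairs with target messenger RNAs mainly through its seed, bases 2 to 8 from the 5′ end. The clusters are each transcribed as a common precursor that is cut into a miR-23, a miR-27 and a miR-24 hairpin, so the paralogs can supply nearly the same mature miRNAs from different loci. The family is known for high expression in endothelial cells and for roles in vessel growth. In the nervous system miR-23a is known to repress lamin B1, a nuclear envelope protein that restrains oligodendrocyte maturation, and miR-27 is known as a repressor of Pparg, a regulator of fat cells. In frog retina miR-24a is known to limit cell death.

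The mature sequences below show how close the paralogs are, which decides what the counts can tell apart. The seed is in capitals, and RefSeq on GRCm38.p6, the assembly also called mm10, supplied the sequences.
miR-27b-3p, from Mir27b: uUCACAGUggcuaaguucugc
miR-27a-3p, from Mir27a: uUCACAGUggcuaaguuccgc
miR-23a-3p, from Mir23a: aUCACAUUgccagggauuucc
miR-24-3p, from both Mir24-1 and Mir24-2: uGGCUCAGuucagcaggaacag
miR-24-1-5p, from Mir24-1: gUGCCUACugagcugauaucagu
miR-24-2-5p, from Mir24-2: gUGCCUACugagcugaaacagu
miR-3074-5p, from both Mir3074-1 and Mir3074-2: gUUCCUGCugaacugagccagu

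In the miR-27 pair the 3p miRNAs shared their first 18 bases and differed by C19U, with the base of miR-27a-3p first and positions counted from its 5′ end. The Mir23b hairpin held a stretch that differed from miR-23a-3p by 1 base as well, U19A. In the hairpins below, capitals mark the bases that are the same as in miR-23a-3p.
Mir23b: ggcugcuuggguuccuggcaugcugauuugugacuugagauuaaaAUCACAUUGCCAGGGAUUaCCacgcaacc
Mir23a: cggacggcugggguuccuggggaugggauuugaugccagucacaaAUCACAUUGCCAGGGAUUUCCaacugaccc
A whole 3p read can therefore be placed at either paralog by base 19, while a read that ends at base 18 matches both. The longest identical run between the hairpins was 20 bases in the miR-23 pair and 20 bases in the miR-27 pair. With each hairpin read on its own strand, every member shared a run of 20 bases with its own paralog. It shared such a run with no other of the 2202 miRNA hairpins of the GENCODE M21 annotation.

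The miR-24 pair could not be told apart in the same way. All 22 bases of miR-24-3p occurred in Mir24-1 and in Mir24-2, whose hairpins share a run of 28 bases, and on that strand in no other hairpin searched. The tables tally reads with more than 1 matching position apart from the genes, so reads of the whole miR-24-3p would be outside the values for both loci and among the 1947238 reads of replicate 1 and the 2890679 of replicate 2 in that tally, which covers all loci. The 5p miRNAs do differ. The Mir24-1 hairpin matches the first 16 bases of miR-24-2-5p and departs from it at A17U. The same limit holds on the other strand, where miR-3074-5p is the same from Mir3074-1 and Mir3074-2, each of which lies opposite to a miR-24 hairpin. The values for miR-24 and miR-3074 below are thus reads unique to a locus, and no measure of total miR-24 in the tissue. For miR-23 and miR-27, both arms of a hairpin are summed, and which arm gave the reads is not shown by a gene count.

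The chromosome 13 cluster spans 800 bases. Mir23b (ENSMUSG00000065599.1) lies at chr13:63300484-63300557 and Mir27b (ENSMUSG00000065475.1) at chr13:63300712-63300784, both on the plus strand. Mir24-1 is at chr13:63301208-63301275 on the same strand, and Mir3074-1 (ENSMUSG00000092741.1) at chr13:63301199-63301283 covers it from the minus strand. The plus-strand hairpins lie within the protein-coding gene 2010111I01Rik, which runs in their direction. Mir23b is in an intron of all 9 transcripts of that gene that span it. Mir27b is in an intron of 8 and in an exon of 1, and Mir24-1 overlaps 11 transcripts, being intronic in 7, wholly exonic in 1 and partly exonic in 3. An intron of Fancc, on the minus strand, also covers the cluster. The chromosome 8 cluster is more compact at 404 bases, with Mir23a (ENSMUSG00000065611.1) at chr8:84208518-84208592, Mir27a (ENSMUSG00000065444.1) at chr8:84208672-84208758 and Mir24-2 (ENSMUSG00000065541.1) at chr8:84208815-84208921, all on the plus strand. It lies outside other annotated genes, except that part of Mir24-2 overlaps an exon of the noncoding gene Gm26532. Mir3074-2 lies opposite to Mir24-2, where 3 reads were counted in each library. That is a low count but not 0, and it equals the limit given below for a count of 0.

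**Figure D1:**
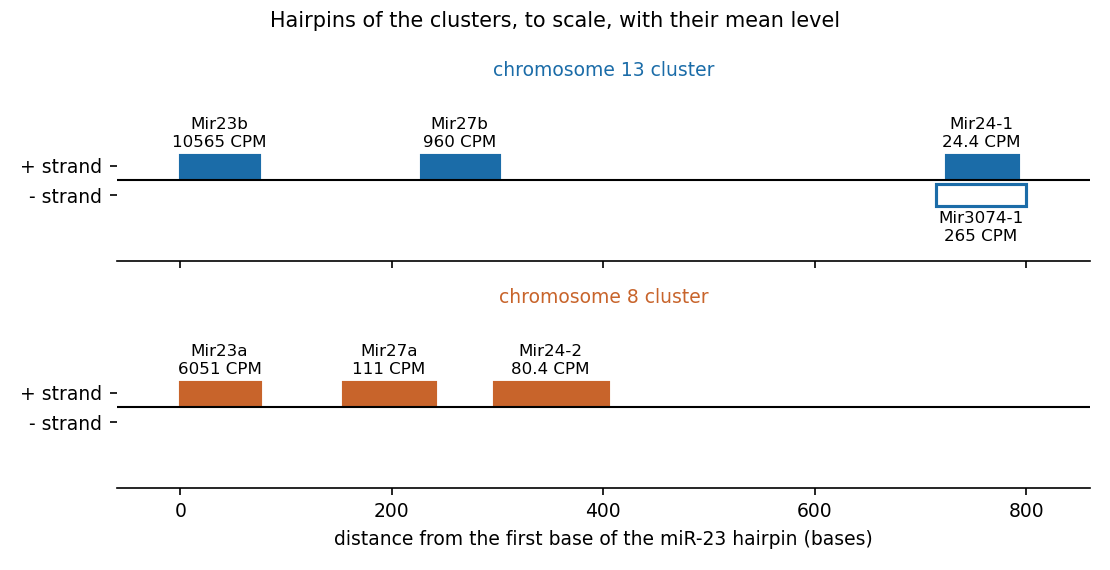
Hairpins of the chromosome 13 cluster (above) and the chromosome 8 cluster (below), drawn to scale by distance in bases from the first base of the miR-23 hairpin, with filled boxes on the plus strand and an open box on the minus strand. Labels give the mean level of 2 libraries in CPM (counts per 1000000 assigned counts), from 10565 for Mir23b down to 24.4 for the reads at Mir24-1.

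The miR-23 hairpins gave nearly all reads assigned to both clusters, and the chromosome 13 copy gave more than the chromosome 8 copy. In whole hindbrain, a difference in the number of cells of a type and one in RNA per cell cannot be told apart. Mir23b had 32028 counts in replicate 1 and 37665 in replicate 2, which are 11586 and 9544 counts per 1000000 assigned counts (CPM). Its mean of 10565 ± 1444 CPM (SD, n = 2) placed it 23rd by mean among all genes, between Mir182 (10658 ± 1248 CPM) and Mir181c (10413 ± 533 CPM), and the ranges of all 3 genes overlapped. Mir23a had 19645 counts in replicate 1 and 19713 in replicate 2, or 7107 and 4995 CPM, with a mean of 6051 ± 1493 CPM and rank 43. It stood next to Mir296 (6221 ± 763 CPM) and Mir431 (5465 ± 36.6 CPM), again with overlapping ranges. Together the miR-23 hairpins held 94.6% of the reads assigned to both clusters in replicate 1 and 91.8% in replicate 2. The clusters are taken here as Mir23b, Mir27b and the Mir24-1 reads, and as Mir23a, Mir27a and Mir24-2. Reads of the whole miR-24-3p would be outside these counts, so the shares are no measure of the part of miR-24.

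The miR-27 hairpins were lower, and Mir27b was again above its chromosome 8 paralog. Mir27b had 2370 counts in replicate 1 and 4196 in replicate 2, or 857 and 1063 CPM, with a mean of 960 ± 146 CPM and rank 108. Mir27a had 287 counts in replicate 1 and 468 in replicate 2, or 104 and 119 CPM, a mean of 111 ± 10.4 CPM and rank 218. The exact Clopper-Pearson 95% interval of Mir27a ran from 92.2 to 117 CPM in replicate 1 and from 108 to 130 CPM in replicate 2. Such intervals and the limit for a count of 0, which is 3 counts or 1.09 CPM in replicate 1 and 0.760 CPM in replicate 2, cover counting error only.

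At the miR-24 loci, reads unique to a locus were few. Most of those on chromosome 13 were on the strand read here as that of Mir3074-1. Mir24-2 had 207 counts in replicate 1 and 339 in replicate 2, or 74.9 and 85.9 CPM. The reads at Mir24-1, counted opposite to Mir3074-1, numbered 65 in replicate 1 and 100 in replicate 2, or 23.5 and 25.3 CPM. Mir3074-1, the hairpin read from the strand complementary to Mir24-1, had 770 counts in replicate 1 and 989 in replicate 2, or 279 and 251 CPM, with a mean of 265 ± 19.8 CPM and rank 166. Of the reads on either strand of this locus, 92.2% in replicate 1 and 90.8% in replicate 2 were on the strand of Mir3074-1. That reading takes the strand of Mir3074-1 from M21, while the tables were made with M4, whose own entry was not used here. On the other strand the values of Mir3074-1 and Mir24-1 would change places. The only mature miRNA that RefSeq lists for Mir3074-1 is miR-3074-5p, whose whole reads match Mir3074-2 too and would be outside these counts. At Mir24-2 most reads were on the strand of the miR-24 hairpin, with 3 on the opposite strand in each library. Which strand the M4 entry has was not tested.

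By mean level, Mir27b stood between Mir323 (996 ± 162 CPM) and Mir28a (907 ± 114 CPM), and Mir3074-1 between Mir1306 (284 ± 73.0 CPM) and Mir223 (259 ± 48.2 CPM). Mir27a stood between Gm23935 (113 ± 20.5 CPM) and Mir412 (110.0 ± 2.97 CPM), and Mir24-2 between Mir574 (84.4 ± 24.7 CPM) and Mir6236 (79.4 ± 12.5 CPM). Each of these 4 members overlapped both of its neighbours in range.

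The order of the 7 values was the same in both libraries, from Mir23b through Mir23a, Mir27b, Mir3074-1, Mir27a and Mir24-2 to the Mir24-1 reads. For all 6 adjacent pairs the ranges over the libraries did not overlap. The closest pair was Mir27a and Mir24-2, 1.39-fold apart in replicate 1 and 1.38-fold in replicate 2. A miRNA read is a whole mature molecule, so counts were not divided by length, and per 100 bases of hairpin the order of all 6 adjacent pairs was also kept in both libraries. Other members of each seed family bear on this little. The Mir23b hairpin printed above carries the seed of miR-23a-3p. Among the mature miRNAs listed in the RefSeq table for genes outside the clusters, none had that seed or that of the miR-27 3p miRNAs. The seed of miR-24-3p also occurs in miRNAs of Mir5124b, Mir6369, Mir6410 and Mir6413, which had 0 counts in both libraries.

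**Figure D2:**
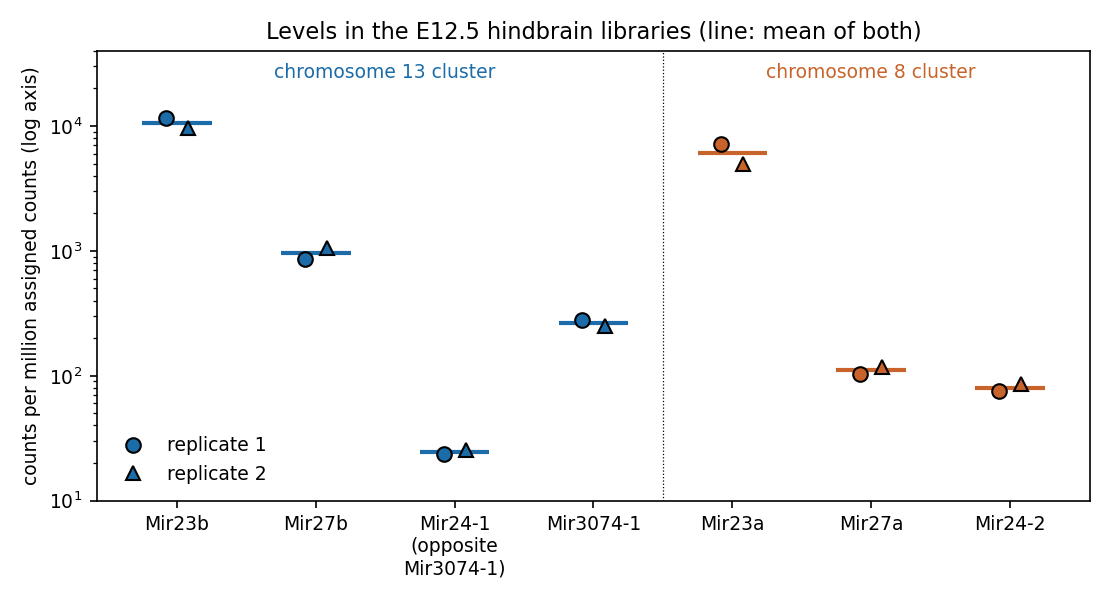
Level of each hairpin in CPM on a log axis, with the chromosome 13 cluster on the left and the chromosome 8 cluster on the right; circles are replicate 1, triangles replicate 2 and lines their mean. Mir23b and Mir23a lie at or above 4995 CPM in both libraries, Mir27b at 857 and 1063 CPM and the remaining values at or below 279 CPM.

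The chromosome 13 cluster gave about 1.9 times the counts of the chromosome 8 cluster. Its sum was 12467 CPM in replicate 1 and 10633 CPM in replicate 2, a mean of 11550 ± 1297 CPM (SD, n = 2), against 7285 and 5200 CPM, a mean of 6243 ± 1475 CPM, for the chromosome 8 cluster. The ranges of the sums did not overlap. The chromosome 13 share of the reads of both clusters was 63.1% in replicate 1 (exact 95% interval 62.7% to 63.5%) and 67.2% in replicate 2 (66.8% to 67.5%). The log2 ratio was 0.90 ± 0.18, and 0.93 per 100 bases of hairpin. With 2 libraries an exact sign-flip test gives a p of at least 0.5, so the clusters were not tested against each other, and their ratio is given with its spread.

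The excess of the chromosome 13 cluster was not the same in the paralog pairs. Mir23b was 1.63 times as high as Mir23a in replicate 1 and 1.91 times in replicate 2, a log2 ratio of 0.82 ± 0.16, or 0.84 per 100 bases of hairpin. Mir27b was 8.25 times as high as Mir27a in replicate 1 and 8.96 times in replicate 2, a log2 ratio of 3.10 ± 0.08, or 3.36 per 100 bases. The miR-27 ratio was thus above the miR-23 ratio in both libraries, by far more than the spread of either. Mir27b held 6.88% of the reads assigned to the chromosome 13 cluster in replicate 1 and 4196 of 41961 in replicate 2. Mir27a held 1.43% and 2.28% of those assigned to the chromosome 8 cluster.

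With the strands read as above, the miR-24 pair went the other way. By reads unique to a locus, Mir24-1 was 3.17-fold lower than Mir24-2 in replicate 1 and 3.38-fold lower in replicate 2, a log2 ratio of -1.71 ± 0.07. The Mir24-1 share of the reads of the pair was 23.9% in replicate 1 (exact 95% interval 19.0% to 29.4%) and 22.8% in replicate 2 (18.9% to 26.99%). Per 100 bases of hairpin the log2 ratio was -1.06. The direction rests on the strands: with both strands of the loci counted together it was 1.83, since the reads of Mir3074-1 then enter the chromosome 13 side, and with Mir3074-1 read from the other strand it was 1.72.

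**Figure D3:**
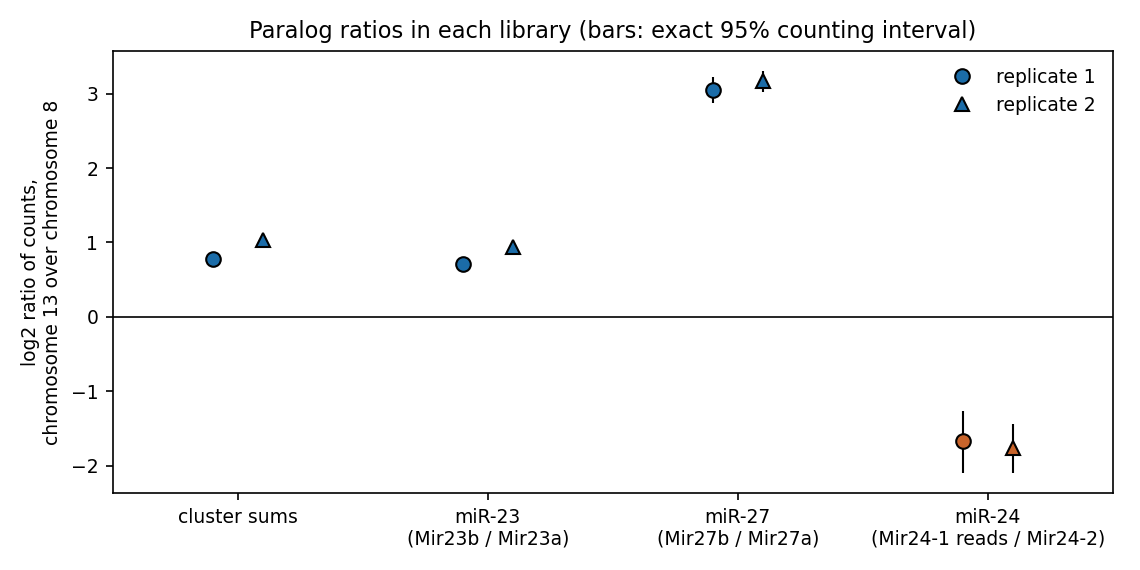
Log2 ratio of counts, chromosome 13 over chromosome 8, for the cluster sums and for each paralog pair; circles are replicate 1, triangles replicate 2 and bars exact 95% counting intervals, which are shorter than the symbols for the cluster sums and miR-23. The ratios lie above 0 for the cluster sums, miR-23 and miR-27, with means of 0.90, 0.82 and 3.10. They lie below 0 for the reads at the miR-24 loci, with a mean of -1.71. The sign for miR-24 depends on the strand taken for Mir3074-1, and read from the other strand the mean would be 1.72.

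Hairpins of a common precursor gave unequal counts in both clusters, and the chromosome 8 cluster was the more uneven from its miR-23 to its miR-27 hairpin. The ratio of Mir23b to Mir27b was 13.5 in replicate 1 and 8.98 in replicate 2, whereas that of Mir23a to Mir27a was 68.4 and 42.1. By reads unique to a locus, Mir27a and Mir24-2 were nearly level by comparison, as given above. Whole reads of the mature miRNA shared by both miR-24 hairpins would be outside the Mir24-2 count. The ratio of Mir27a to Mir24-2 therefore does not show how even the products of these hairpins were. Uneven counts were not particular to the miR-23/27/24 clusters. In the miR-17-92 cluster, known for promoting proliferation, the ratio of Mir17 to Mir19b-1 was 2052 in replicate 1 and 2506 in replicate 2. In its paralog, the miR-106b-25 cluster, the ratio of Mir93 to Mir25 was 22.5 and 24.6. In the miR-181c/d cluster the ratio of Mir181c to Mir181d was 1.15 and 1.28. By name Mir19b-1 has a second copy, Mir19b-2, at a mean of 8.11 CPM, and sequence shared by hairpins of these other clusters was not searched. The part of shared sequence in these ratios was not tested.

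**Figure D4:**
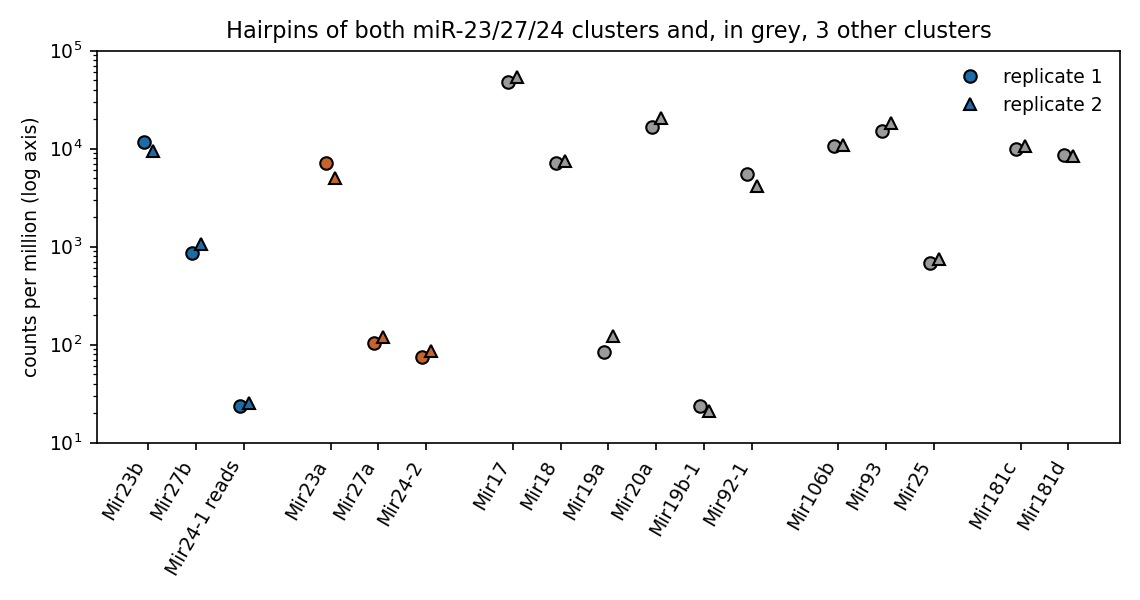
Level in CPM, on a log axis, of the hairpins of the chromosome 13 cluster (blue), the chromosome 8 cluster (orange) and, in grey, the miR-17-92, miR-106b-25 and miR-181c/d clusters; circles are replicate 1 and triangles replicate 2. The spread from highest to lowest hairpin is widest in the miR-17-92 cluster, from Mir17 at 48251 and 53339 CPM to Mir19b-1 at 23.5 and 21.3 CPM.

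Between the libraries Mir23a and Mir23b were lower in replicate 2 and Mir27b was higher, each by less than 1.5-fold. By adjusted p below 0.05 with no minimum fold these 3 passed, as did 51.7% of all tested genes. The other 3 members did not. Mir23a was at 4995 CPM in replicate 2 and 7107 CPM in replicate 1, which is 1.42-fold lower in replicate 2 (adjusted p = 7.27e-265). Mir23b was 1.21-fold lower in replicate 2 (adjusted p = 2.26e-141), and Mir27b was 1.24-fold higher (adjusted p = 1.68e-16). The adjusted p of Mir3074-1 was 0.0558, with 251 CPM in replicate 2 and 279 CPM in replicate 1. Mir27a had 119 CPM in replicate 2 and 104 CPM in replicate 1 (adjusted p = 0.129), and Mir24-2 had 85.9 and 74.9 CPM (adjusted p = 0.203). Each p came from an exact binomial test, two-sided, of the gene's counts in both libraries, with Benjamini-Hochberg adjustment over the 393 genes that averaged 10 counts or more. It compares these libraries and not conditions, and it takes counting error alone as the spread.

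Set against all miRNA genes, the differences of the members were of the usual size. With calls at 2-fold or more and an adjusted p below 0.05, 0 of 6 members were called in the binomial test, against 3.56% of the 393 genes, and 4 of 6 members had an unadjusted p under 0.05, against 220 of the 393 genes. At 1.5-fold, 0 of 6 members and 9.92% of the genes were called. With no minimum fold, 3 of 6 members and 51.7% of the genes were called, so that a call by counting error alone says little about a member. The median absolute log2 ratio was 0.24 over the members and 0.24 over all tested genes, and 84.5% of the genes were within 1.5-fold, as all 6 members were. The common dispersion of edgeR put the variation between the libraries, after counting error, at 17.5%.

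With Mir23b and Mir23a lower in replicate 2, the ratios within the clusters differed between the libraries. The ratio of Mir23b to Mir27b was 8.98 in replicate 2 and 13.5 in replicate 1, and that of Mir23a to Mir27a was 42.1 and 68.4. The ratio between paralogs moved less, with the log2 ratio of Mir23b to Mir23a higher by 0.23 and that of Mir27b to Mir27a by 0.12 in replicate 2.

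**Figure D5:**
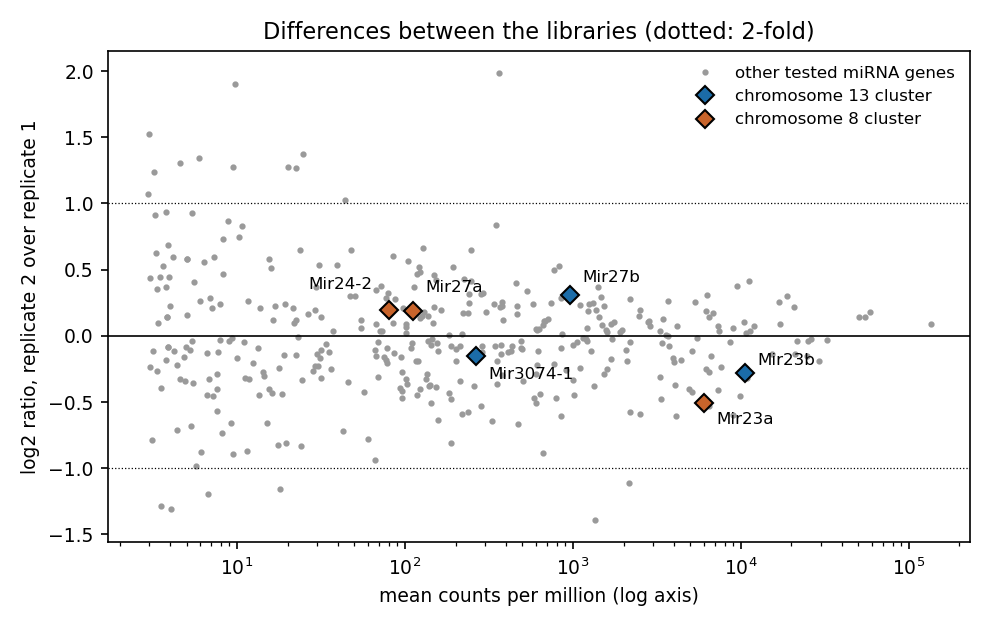
Log2 ratio of replicate 2 over replicate 1 against the mean level in CPM (log axis) for the 393 tested miRNA genes in grey, with the chromosome 13 cluster as blue diamonds and the chromosome 8 cluster as orange diamonds; dotted lines mark 2-fold. The 6 members lie between -0.51 (Mir23a) and 0.31 (Mir27b), inside the lines.

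Other miRNAs described in vessel growth or hypoxia were at levels from below Mir27a to above Mir23b. Of 11 on the list, 10 were analysed. Mir130a had 32481 ± 537 CPM and Mir126a, the endothelial miRNA in Egfl7, had 24715 ± 1800 CPM. Mir296 was at 6221 ± 763 CPM, close to Mir23a. Mir210, which is induced by low oxygen, had 604 ± 14.6 CPM, and Mir222 had 92.98 ± 17.9 CPM. With no minimum fold, 3 of the 10 were called higher and 5 lower in replicate 2, against 51.7% of all genes in either direction, and none reached 2-fold. The median log2 ratio of the list was -0.01, against -0.04 over all tested genes.

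Summed markers of cell types and tissues, neural ones included, differed between the libraries in both directions. Of the endothelial markers 1 of 2 was analysed, Mir126a, at 23442 CPM in replicate 2 and 25987 CPM in replicate 1. Mural cell markers, of which both were analysed, had a sum of 10834 CPM in replicate 2 and 8348 CPM in replicate 1. All 5 epithelial markers summed to 5858 and 8648 CPM. Mir200c (746 and 1959 CPM) and Mir429 (1362 and 2950 CPM) were called lower at 2-fold, and Mir141 gave 136 and 238 CPM. Mir203 gave 2155 and 2230 CPM, and Mir205 went the other way, at 1459 and 1271 CPM. Of the skeletal muscle markers 3 of 4 summed to 592 and 152 CPM, with Mir1a-1 at 0 in both. Mir206 (579 and 146 CPM) and Mir133b (13.4 and 5.43 CPM) were called higher at 2-fold, where 3.56% of all tested genes were called. All 3 erythroid markers summed to 355 and 298 CPM, and 3 of 4 leukocyte markers to 432 and 520 CPM. Among the erythroid markers Mir451a gave 316 and 254 CPM and Mir144 23.1 and 23.2 CPM, while Mir486 went the other way, at 15.7 and 21.3 CPM. Of the neural markers 8 of 9 were analysed, with a sum of 5559 CPM in replicate 2 against 5245 CPM in replicate 1. Mir137 gave 3343 CPM in replicate 2 and 3263 CPM in replicate 1, Mir153 1614 and 1316 CPM, Mir9-3 398 and 367 CPM, and Mir128-1, which went the other way, 190 and 283 CPM. With no minimum fold, Mir153 was called higher in replicate 2 and Mir128-1 lower. Mir9-2 and the 3 copies of miR-124 were between 0.760 and 10.5 CPM, by counts that leave out reads with more than 1 matching position. The part of any of these cell types or tissues in the values of the members was not tested.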

How the data were processed

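The authors deposited 1 table of raw counts for each library, with a row per miRNA gene. Per the text deposited with the tables, reads were placed on mm10 and genes taken from GENCODE M4. Aligner, settings and trimming: not given in the sources used here. A table has counts for both strands and for each strand. The second of these 3 columns was read as the strand of the gene, from the layout and because it holds nearly all counts. Reads assigned to no gene were left out of the totals: those matching several positions were 32.7% and 33.4% of all reads in replicates 1 and 2, unmapped reads 15.7% and 16.2%, and reads outside genes 3.98% and 3.72%.

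Gene IDs were matched without version to GENCODE M21, which gave a symbol to 1894 of 1973 genes. CPM is counts per 1000000 assigned counts. Ratios of paralogs had 0.5 added to each count. Values are mean ± SD over 2 libraries. Differences between the libraries were tested per gene with an exact binomial test, as edgeR's quasi-likelihood test has no residual degrees of freedom for 1 library against 1. The dispersion came from edgeR 4.0.16 with TMM, and DESeq2 1.42.0 gave alternative size factors, in R 4.3.3. Other steps used Python 3.11.15, SciPy 1.17.1, pandas 2.3.3, numpy 2.4.6 and matplotlib 3.10.9. RefSeq supplied 8 of 8 hairpins and 14 mature sequences. It listed no mature miRNA for the 3p arm of Mir23b or of Mir3074-1. A miRNA missing from it would also be missed by the seed search.

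The members and lists were chosen with earlier results of these data known. Named besides the members are miRNA genes within 10 kb of a member, the genes next above and below each member in mean CPM, hairpins that share a run of 20 bases, and the lists. The likeness of other genes over 2 libraries of 1 group was not measured. Alternatives were both strands together, other scalings, hairpin length, other filters, folds and pseudocounts, and leaving out each library. Reading Mir3074-1 from the other strand was added after seeing the data.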

Additional observations from a re-analysis of the deposited data

How the results depend on the processing

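The chromosome 13 cluster stayed above the chromosome 8 cluster under every alternative tried, as did Mir23b above Mir23a and Mir27b above Mir27a. The log2 ratios of the cluster sums were between 0.90 and 0.94 when both libraries were used. Mir23b and Mir23a had 0 reads on the opposite strand, so counting both strands could not change their ratio. Reads that match both paralogs are in neither count, and no alternative varied them. From either library alone, the log2 ratio was 0.78 or 1.03 for the cluster sums, 0.71 or 0.93 for miR-23, 3.04 or 3.16 for miR-27 and -1.66 or -1.76 for miR-24. Per 100 bases of hairpin it moved to 3.36 for miR-27 and -1.06 for miR-24. The miR-24 ratio reversed to 1.83 with both strands together and to 1.72 with Mir3074-1 read from the other strand, since other reads are then counted on chromosome 13. The sum of the chromosome 13 cluster was 13344 CPM without Mir99a in the total. Per 1000000 of all reads in the tables it was 5321, and that of the chromosome 8 cluster 2878. Single libraries gave 10633 or 12467 CPM for the chromosome 13 cluster and 5200 or 7285 CPM for the chromosome 8 cluster. Over single member levels with both libraries used, 19 of 30 alternative values stayed within 1 SD.

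Members called between the libraries numbered 3 with no minimum fold and 0 under the other 7 alternatives, which kept a minimum fold. The binomial adjusted p of Mir3074-1 was 0.0448 with TMM effective totals and 0.0428 among genes that averaged 100 counts or more. It was from 0.0860 to 0.151 with the lower filter, the other scalings and both strands together. Over all genes the 14 calls became 203 with no minimum fold, 39 at 1.5-fold and 4 among genes that averaged 100 counts or more. A difference between the libraries needs both, so none was left out there. No paired analysis was possible because there is 1 group. Depth limits the Mir24-1 reads most, at 65 and 100 counts.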
